A study of Mus musculus with 2 samples.

Results

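The transcription factors Pax2, Pax8, Gata2, Gata3, Lhx1 and Emx2, which belong to the Wolffian duct lineage, were followed in the ureters of mouse embryos with floxed alleles of the receptor Fgfr2 and a Pax2-driven Cre. The members were the 6 genes named here, and every probe with one of these symbols was taken, which gave 9 probes of the 39429 on the array. Of these, 8 probes, with at least 1 for each gene, passed the filter on dim signals and were tested among 27474 probes of 20909 genes. The data were 2 two-colour Agilent arrays of ureters dissected at E13.5 from the NMRI strain, each with a mutant and a control pool hybridised together. The mutant pools carried Pax2-cre/+ with Fgfr2(fl/fl) and Fgfr1(fl/?), and the control pools carried Fgfr1(fl/?) and Fgfr2(fl/?) with no Cre, where ? stands for a wild-type or a floxed allele. The mutant pools therefore mixed embryos with 1 and with 2 floxed Fgfr1 alleles, the control pools also held floxed alleles, and how many embryos made up a pool is not stated. On array 1 the pools were female, with Cy5 on the mutant and Cy3 on the control RNA. On array 2 they were male, with Cy3 on the mutant and Cy5 on the control RNA. Sex, dye and pool thus change together between the arrays and cannot be told apart. Deletion is limited to cells in which the regulatory DNA of Pax2 was active. All mutant pools but no control pool carried the Cre, which can also act on the floxed Fgfr1 alleles. For Pax2 and for every other gene, the Cre, deletion of Fgfr1 alleles and the loss of Fgfr2 cannot be told apart.

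The Wolffian duct is the epithelial tube from which the ureteric bud grows out to form the epithelium of the ureter and the collecting ducts. In mouse embryos Pax2 and Pax8, paired-domain factors with overlapping functions, specify the duct and act upstream of the zinc-finger factor Gata3 and the LIM homeobox factor Lhx1. Gata3 in turn activates Ret in the duct, Gata2 takes part in urogenital development, and the homeobox factor Emx2 is needed for the ureteric bud to branch. Fgfr2 in the duct epithelium receives fibroblast growth factors from the surrounding mesenchyme. The comparison asks whether the transcripts of these factors differ between ureters of the mutant and the control genotypes. These differ in the Cre and in the Fgfr2 and Fgfr1 alleles that it can delete.

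Pax2 and Lhx1 each had more than 1 probe, and these did not give the same ratios, so 3 of their probe sequences are shown to tell which stretch of each transcript was read. They are 60 bases long, written 5′ to 3′, and no base is marked.
Pax2 probe A: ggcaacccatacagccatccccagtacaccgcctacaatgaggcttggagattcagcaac
Pax2 probe C: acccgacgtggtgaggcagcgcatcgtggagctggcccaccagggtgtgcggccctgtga
Lhx1 probe B: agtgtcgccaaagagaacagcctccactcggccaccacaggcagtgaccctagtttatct
Pax2 probe A lies at chr19:44909895-44909954 and probe C at chr19:44835420-44835479, both on the plus strand of mm9 as the array design gives them. Both read coding sequence of Pax2, probe C that of the DNA-binding paired domain and probe A that near the end of the protein. Probe C is 70% G and C, against 55% for probe A. A further Pax2 probe, called B, lies between them at chr19:44871124-44871183 and was designed on an Ensembl transcript and predicted RefSeq models rather than on the Pax2 mRNA of the other two. Lhx1 probe B spans 153 bases on the minus strand, chr11:84335442-84335594, more than its own 60 bases, so it joins separate stretches of the genome. Lhx1 probe A lies at chr11:84331888-84331947. The single probes of the other genes lie at chr2:24276147-24276206 for Pax8, chr6:88156362-88156421 for Gata2, chr2:9779551-9779610 for Gata3 and chr19:59539142-59539201 for Emx2. The array design assigns each of these probes to the mRNA of its gene, and which exon or untranslated region holds it was not looked up, since no mm9 annotation was used here.

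Between 67.8% and 77.0% of probes were well above background in each channel, and no spot was saturated. Every probe was printed 4 times on each array, which shows the technical spread within an array, and precision is limited by having 2 arrays. All ratios are log2 mutant over control, and each level is a normalised log2 intensity. The spread of the ratios over all tested probes was wider on array 2 (SD 0.32) than on array 1 (SD 0.20), and the ratios of the arrays had a correlation of -0.031 across probes, which are not independent replicates. Fgfr2 itself, floxed on both alleles in the mutant, gave no negative ratio, with 0.27 and 0.057 at the brighter Fgfr2 probe and 0.081 and 0.091 at the other. Fgfr1, also floxed, had 0.27 and -0.44 at its brightest probe, and 0.026 and 0.51, and 0.17 and -0.16, at dimmer probes. Which exons are floxed is not stated, and a probe outside them would check nothing.

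No probe of the 6 factors passed the test (limma, Benjamini-Hochberg adjusted p = 1.0 for each of the 8), where 6 of all tested probes, or 0.0218%, passed. At an unadjusted p under 0.05 there was 1 member probe, that of Gata3, against 3.87% of all tested probes. Gata3, Gata2 and Emx2 were lower in the mutant on both arrays, which is 3 of 6 genes by their brightest probes, against 21.4% of all tested genes. That background depends on the scaling, since 23.2% of all tested probes were negative and 21.0% positive on both arrays after loess, and 38.7% and 15% after median centring. None of the 6 was higher on both arrays, against 22.1% of all tested genes, and Pax2, Pax8 and Lhx1 had opposite signs on the arrays, as had 56.5% of all tested genes. The median ratio of the 6 genes was -0.25, with -0.29 on array 1 and -0.17 on array 2, beside a median of 0.0044 over all tested genes. In simulated data of the same size, 7.65% of probes planted at 1.5-fold and 80.5% of those planted at 2-fold were called, so differences of the size seen here were mostly below what the test can call.

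**Figure D1:**
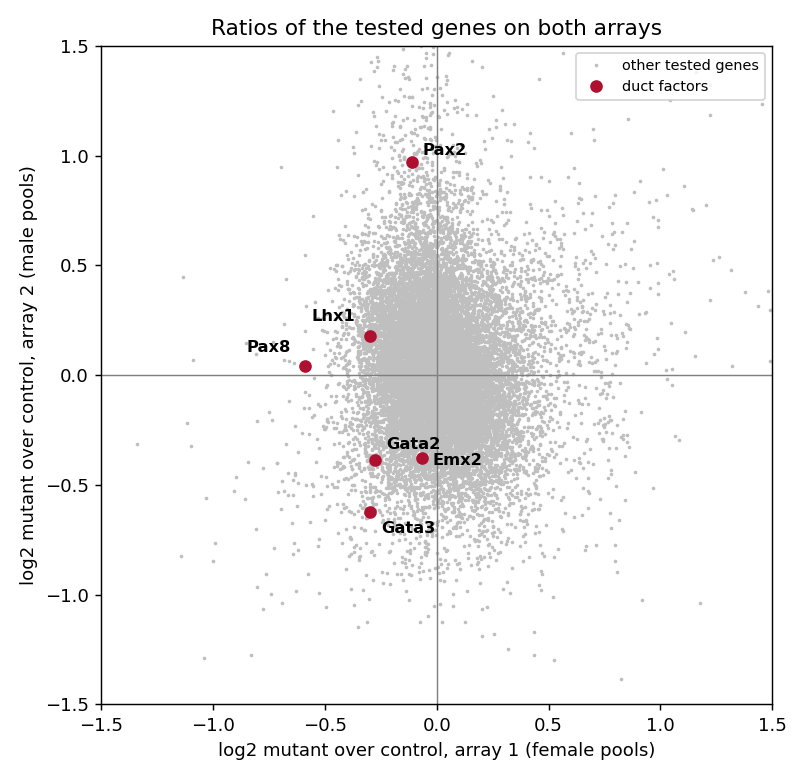
Log2 mutant over control on array 1 (horizontal axis) and on array 2 (vertical axis) for the brightest tested probe of each of 20909 genes, with the 6 duct factors in red and 58 genes beyond the axes not drawn. Gata2, Gata3 and Emx2 lie below 0 on both axes, and Pax2, Pax8 and Lhx1 lie left of 0 on array 1 and above 0 on array 2.

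Gata3, which the duct needs for its outgrowth and for Ret expression, had the lowest mean ratio of the 6. Its level was 12.94 and 12.69 in the mutant pools of array 1 and array 2, against 13.24 and 13.31 in the control pools. On both arrays the mutant pool lay below its control pool, as for 21.4% of all tested genes. The gap was wider on the male array. The ratios were -0.30 and -0.62, a mean of -0.46 ± 0.23 (SD, n = 2 arrays) and a fold of 0.727. The 95% interval of the limma fit ran from -0.83 to -0.093 (unadjusted p = 0.0207, adjusted p = 1.0), and 0.775% of all tested probes had a mean ratio as low. The 4 spots ran from -0.37 to -0.25 on array 1 and from -0.69 to -0.49 on array 2, so the spots of the arrays did not overlap. Before normalisation the Gata3 spots averaged 8305 and 5815 in the mutant channels over local backgrounds of 65.3 and 20.5, and 8628 and 12428 in the control channels over 23.5 and 63.5. The signal was thus far above the local background in every channel. In bulk tissue, fewer cells of a type and less RNA per cell cannot be told apart.

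Gata2, the GATA factor that also acts in blood progenitors, mast cells and endothelium, was also lower on both arrays, by a smaller amount. It had levels of 12.95 and 12.99 in the mutant pools, against 13.23 and 13.38 in the control pools. On both arrays the mutant pool was again below its control pool, and the arrays were closer to each other than for Gata3. The ratios of -0.28 and -0.38 gave a mean of -0.33 ± 0.077 (SD, n = 2 arrays), a fold of 0.795. The interval of -0.67 to 0.013 included 0 (limma, unadjusted p = 0.0570, adjusted p = 1.0), and 2.53% of all tested probes were as low. The spots of the arrays overlapped, from -0.42 to -0.16 on array 1 and from -0.58 to -0.23 on array 2.

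Emx2, the homeobox factor of bud branching, was lower mainly on the male array. Its level was 9.51 and 9.38 in the mutant pools, against 9.57 and 9.76 in the control pools. The pools of array 1 lay close together, and the mutant pool of array 2 was the lowest of the 4. The ratios were -0.066 and -0.38, with a mean of -0.22 ± 0.22 (SD, n = 2 arrays) and an interval of -0.59 to 0.14 (limma, adjusted p = 1.0). On array 1 the 4 spots lay on both sides of 0, from -0.17 to 0.12, so the difference there was within the technical spread.

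**Figure D2:**
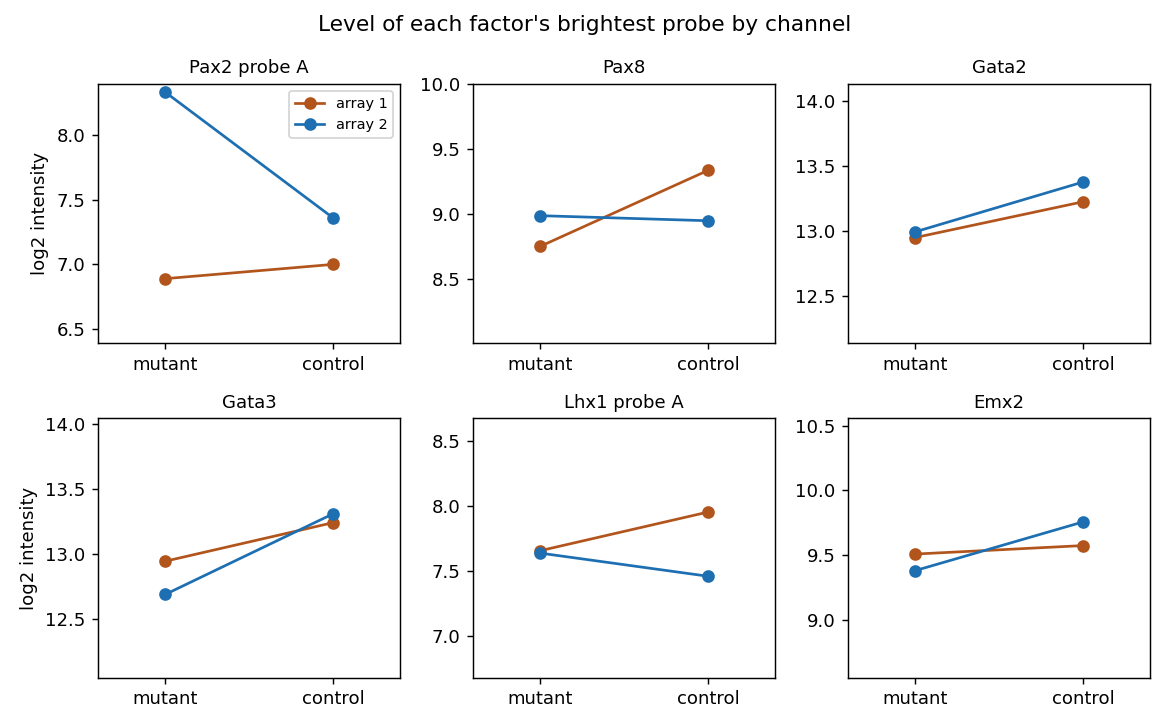
Normalised log2 intensity of each factor's brightest probe in the mutant (left) and control (right) channel of each array, with a line joining the pools hybridised together and every panel spanning the same range. The lines of Gata2, Gata3 and Emx2 go up to the control side on both arrays, and those of Pax2, Pax8 and Lhx1 slope opposite ways on the arrays.

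Pax8, the partner of Pax2 in duct specification, was lower in the mutant on the female array alone. Its level was 8.75 in the mutant and 9.34 in the control pool of array 1. On array 2 it was 8.99 in the mutant and 8.95 in the control pool. The mutant pool of array 1 was the lowest and its control pool the highest of the 4. The ratios of -0.59 and 0.039 averaged -0.27 ± 0.44 (SD, n = 2 arrays), with an interval of -0.71 to 0.16 (limma, adjusted p = 1.0). Of all tested probes, 0.273% were as low on array 1. The spots did not overlap between the arrays, from -0.74 to -0.52 on array 1 and from -0.065 to 0.089 on array 2, so the gap between the arrays is wider than the spread of the spots.

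Pax2, whose regulatory DNA drives the Cre, was read near its end by probe A. There the level was 6.89 and 8.33 in the mutant pools, against 7.0 and 7.36 in the control pools. The mutant pool of array 2 stood above the other 3 channels, while the pools of array 1 were close. The ratios were -0.11 and 0.97, a mean of 0.43 ± 0.76 (SD, n = 2 arrays) with an interval of -0.14 to 1.01 (limma, adjusted p = 1.0). All 4 spots of array 2 lay between 0.89 and 1.03, and those of array 1 between -0.35 and 0.017. Without array 1 the ratio of probe A was 0.97, and without array 2 it was -0.11, so array 2 alone gives the positive mean.

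The other Pax2 probes had no ratio as high on array 2. Probe B had levels of 6.74 and 6.92 in the mutant pools, against 6.70 and 6.75 in the control pools, with ratios of 0.043 and 0.17. Its mean of 0.11 ± 0.089 (SD, n = 2 arrays) had an interval of -0.24 to 0.45 (limma, adjusted p = 1.0). Probe C, in the paired domain, was not well above background in either mutant channel or in the control channel of array 2, while in the control channel of array 1 this flag was set at 3 of 4 spots. It gives no fold, and its spots averaged 79.8 and 32.6 in the mutant channels over backgrounds of 64.6 and 20.8, and 43.3 and 83.7 in the control channels over 22.8 and 63.5. Probe A was dim as well, and averaged 116 and 275 in the mutant channels over backgrounds of 66.6 and 21.0, and 74.8 and 182 in the control channels over 22.8 and 63.8.

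Lhx1, the LIM homeobox factor that maintains the duct, also differed between its probes. Probe A had levels of 7.66 and 7.64 in the mutant pools, against 7.95 and 7.46 in the control pools. The mutant pools were level with each other and the control pools were not. The ratios of -0.30 and 0.18 averaged -0.060 ± 0.34 (SD, n = 2 arrays), with an interval of -0.46 to 0.34 (limma, adjusted p = 1.0). Probe B had levels of 6.94 and 7.99 in the mutant pools, against 6.94 and 7.16 in the control pools, so that the mutant pool of array 2 was the highest of the 4. Its ratios were 0.00054 and 0.83, a mean of 0.42 ± 0.59 (SD, n = 2 arrays) with an interval of -0.077 to 0.91 (limma, unadjusted p = 0.0868, adjusted p = 1.0). With the probes of Lhx1 averaged, the ratio of the gene was 0.18 instead of the -0.060 of probe A, so no direction can be given for it.

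Pax2 probe A and Lhx1 probe B had mean ratios near 0 on array 1 and high ones on array 2, as had many other probes. On array 2, 283 tested probes, or 1.03%, had a ratio at least as high as Pax2 probe A, while 58 were as far below 0. At the ratio of Lhx1 probe B the counts were 464 as high and 147 as low. Of the 283 probes, 67.1% lay within 0.2 of 0 on array 1, against 77.3% of all tested probes. Their median level was 8.33, against 9.56 for all tested probes. The mutant RNA was in Cy3 on that array, and the part of dye, signal level, sex or pool in these ratios was not tested.

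**Figure D3:**
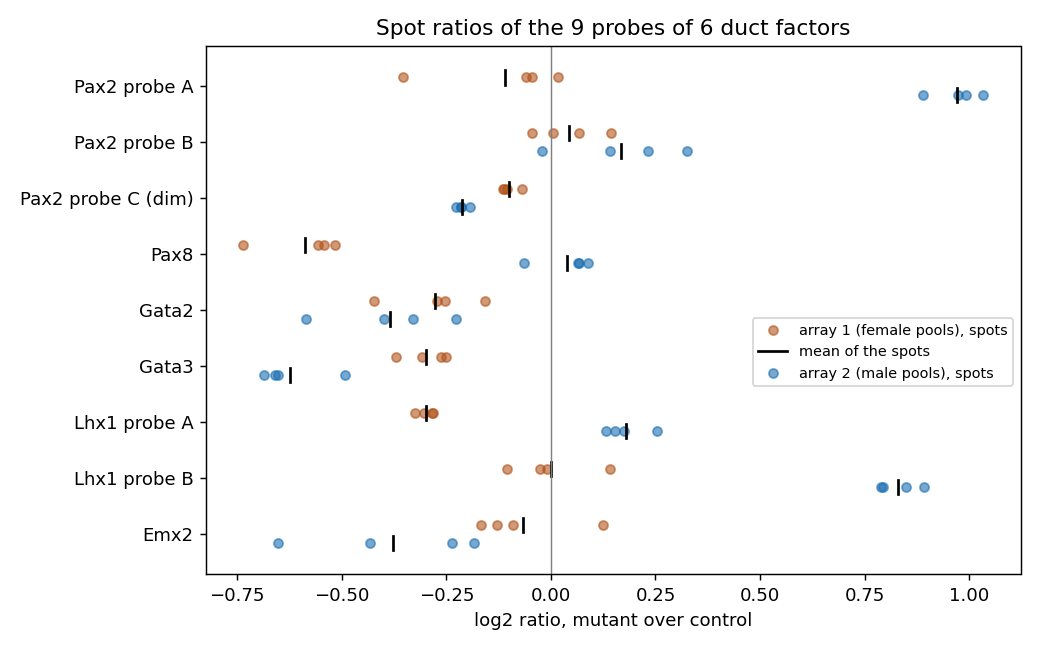
Log2 mutant over control at each of the 4 spots (points) of the 9 probes on array 1 (female pools) and array 2 (male pools), with a vertical bar at the mean of the spots, and the probe marked dim left out of the test. The spots of Gata2 and Gata3 lie below 0 on both arrays, and those of Pax2 probe A and Lhx1 probe B lie between -0.35 and 0.14 on array 1 and between 0.79 and 1.03 on array 2.

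Other regulators of the duct and bud were lower in more cases than higher. Among 18 such genes, both arrays gave a negative ratio for 12 and a positive one for 0, beside 21.4% negative and 22.1% positive among all tested genes. Their median ratio was -0.21, between -0.34 and -0.23 under 4 other scalings. None passed the test in limma, and 5 had an unadjusted p under 0.05, as had 870 of all 20909 tested genes. The feedback inhibitor Spry1 was at -0.78 ± 0.40, the AP-2 factors Tfap2b and Tfap2a at -0.76 ± 0.044 and -0.44 ± 0.36, and the growth factor Bmp7 at -0.53 ± 0.016 (SD, n = 2 arrays). Their adjusted p values in limma were 0.777, 0.537, 1.0 and 0.968. A dimmer Tfap2a probe had ratios of -0.16 and -0.014. Ret, the receptor that Gata3 activates in the duct, had ratios of -0.017 and -0.055 and was picked with its values in view.

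General markers of the ureteric epithelium, the tissue that would hold these factors, were divided. Negative ratios on both arrays were found for 8 of 16 markers, positive ones for 1 and opposite signs for 7. Among all tested genes 21.4% were negative, 22.1% positive and 56.5% opposite. The median was -0.21, between -0.32 and -0.22 under 4 other scalings. None passed the test in limma, and 6 had an unadjusted p under 0.05, as had 870 of all 20909 tested genes. The hedgehog ligand Shh was at -0.54 ± 0.13, the WNT ligand Wnt7b at -0.49 ± 0.19, the epithelial factor Grhl2 at -0.48 ± 0.19 and the claudin Cldn4 at -0.41 ± 0.065 (SD, n = 2 arrays). A dimmer Cldn4 probe had ratios of 0.15 and -0.29. The keratin Krt19 was the marker positive on both arrays, at 0.36 ± 0.16, and was picked with its value in view. Among the markers with opposite signs, picked in the same way, were the cell adhesion molecules Epcam at -0.095 and 0.29, Cdh1 at -0.26 and 0.10, and Cdh16 at -0.41 and 0.090. The summed linear level of the 16 markers was 106514 and 105775 in the mutant pools, against 122989 and 124178 in the control pools. Without Krt18, the largest part of it, it was 64313 and 69937 in the mutant pools, against 73656 and 72886 in the control pools. For the 6 factors the sum was 16960 and 16141 in the mutant pools, against 20745 and 22197 in the control pools, with 45.9% to 50.2% of it from the Gata2 probe. The part of the amount of epithelium in the ratios of Gata2 and Gata3 was not tested.

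The genes of these 2 lists whose ratios lay nearest to each factor, out of 34 and over 2 arrays, were Wnt7b and Krt18 for Gata3 (distances 0.055 and 0.13) and Cldn4 and Esrp1 for Gata2 (0.11 and 0.11). Hoxb7 and Sox9 lay nearest to Emx2 (0.11 and 0.14). Etv4 and Calb1 lay nearest to Pax8 (0.052 and 0.11), Cdh1 and Npnt to Lhx1 probe A (0.082 and 0.094), and Sall4 and Epcam to Pax2 probe A (0.33 and 0.68). Etv4, at -0.64 and 0.055, was the nearest to Pax8 of all tested genes. Wnt7b, at -0.35 and -0.62, was 1 of 19 genes at that distance from Gata3 or nearer. Calb1 was 1 of 8 genes at its distance from Pax8 or nearer, and Krt18 was 1 of 84 for Gata3. The nearest genes of the other factors were less close in rank, with 200 genes as close to Gata2 as Cldn4 and 268 as close to Lhx1 as Cdh1. For Pax2, 523 genes were as close as Sall4, and for Emx2, 558 were as close as Hoxb7. With 2 arrays such nearness is a description only.

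Paralogues of the 6 factors, the remaining genes of their families, had more positive than negative ratios. Of 23 paralogues 17 were measured, and both arrays were positive for 10 and negative for 0. Among all tested genes 22.1% were positive and 21.4% negative on both arrays. Under 4 other scalings 8 or 9 of the paralogues were positive and 0 to 2 negative. The median was 0.12, between 0.099 and 0.21 under 4 other scalings, and none differed 1.5-fold the same way on both arrays. None passed the test in limma, also at an unadjusted p under 0.05, where the count was 0. The paralogues given next were picked with their values in view. Gata6 was at 0.072 ± 0.028 and Gata4 at 0.084 ± 0.35. Gata1, the GATA factor of red cell precursors, had ratios of 0.64 and -0.40. Pax5 and Pax9 had ratios of -0.095 and 0.77, and of 0.035 and 0.80. Both were dim, with levels in the mutant pools of 6.36 and 7.40 for Pax5 and of 6.66 and 7.32 for Pax9. No Pax5 spot was well above background in the mutant channel of array 1. Some that counted as positive on both arrays lay near 0, with Pax3 at 0.0076 and 0.044 and Isl1 at 0.065 and 0.0071. Pax3 was also dim, with levels of 6.70 and 6.66 in the mutant pools. Lhx6 had ratios of 0.031 and 0.51 at its brightest probe, and of 0.019 and -0.35 at a dimmer tested one. For the cofactors of the 6 factors, 1 of 12 was positive and 2 negative on both arrays, while median centring gave 0 and 5, and the median was -0.0064. The corepressor Tle4 was at -0.19 ± 0.20 and the LIM-domain regulator Rlim at -0.18 ± 0.036 (SD, n = 2 arrays).

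**Figure D4:**
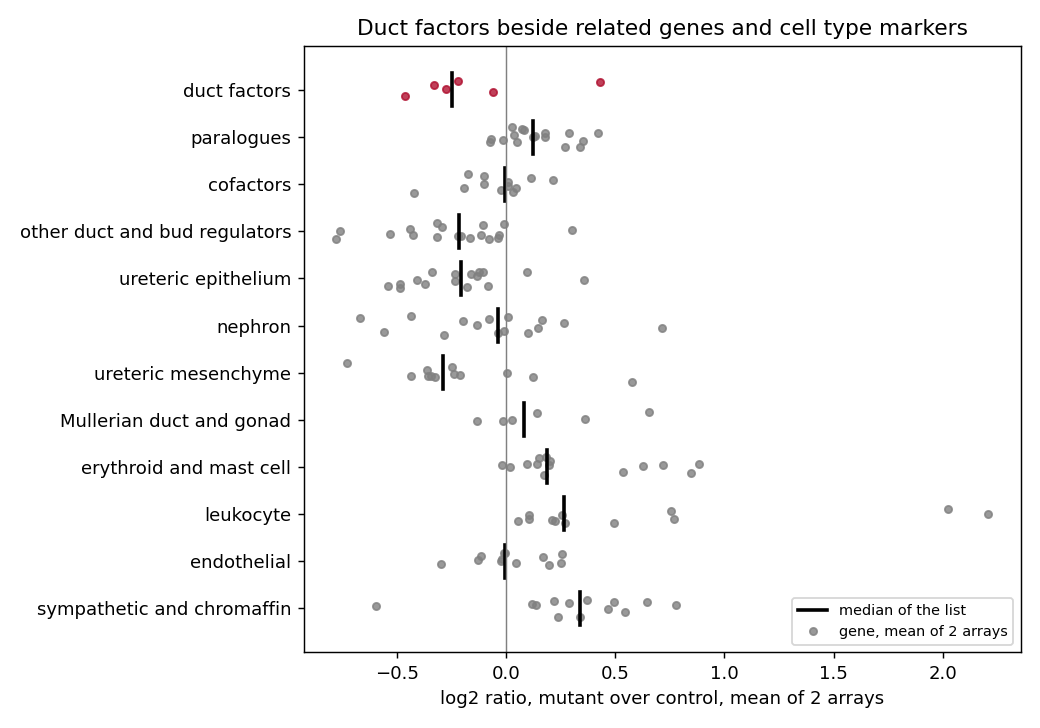
Mean log2 mutant over control of 2 arrays (horizontal axis) for the tested genes of each list, 1 point a gene, with a black bar at the median of the list. The lowest median is that of the ureteric mesenchyme, at -0.29. The medians of the duct factors, the other duct and bud regulators and the ureteric epithelium lie at -0.25, -0.21 and -0.21, and those of the erythroid, leukocyte and sympathetic lists at 0.19, 0.26 and 0.34.

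Several other cell types express one of the factors, and their markers were measured on the same arrays. For comparison with the counts of this list and the next ones, 22.1% of all tested genes were positive and 21.4% negative on both arrays. Red cell and mast cell markers were positive on both arrays for 9 of 14 genes and negative for 0, and after median centring for 6 and 1. Their summed level was 279601 and 223005 in the mutant pools, against 105291 and 194882 in the control pools. The single gene Hbb-y made up 66.9% to 78.5% of that sum. Without it the sum was 60192 and 58496 in the mutant pools, against 34870 and 43881 in the control pools. Among them the embryonic globin Hbb-y was at 1.64 and 0.12, the haem synthesis enzyme Alas2 at 0.85 ± 0.20, the embryonic globin Hbb-bh1 at 0.72 ± 0.21 and the anion exchanger Slc4a1 at 0.63 ± 0.087. The globin genes are similar copies, so their probes can share transcripts. Endothelial markers, another site of Gata2, were positive for 5 of 12 genes and negative for 2, and after median centring for 1 and 6. Their sums were 39746 and 36301 in the mutant pools, against 34201 and 34969 in the control pools. Without Egfl7 they were 15278 and 13726 in the mutant pools, against 15342 and 14273 in the control pools, so that gene gives the difference in the sums. Erg was at -0.30 ± 0.065, Tek at 0.26 ± 0.18, Egfl7 at 0.25 ± 0.18 and Pecam1 at 0.20 ± 0.26 (SD, n = 2 arrays).

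Sympathetic neurons and chromaffin cells, which also make Gata2 and Gata3, had positive ratios in both arrays for 11 of 13 markers and negative ones for 1. After median centring the numbers were 6 and 1. Chgb was at 1.49 and 0.063, Sox10 at 0.075 and 1.22, and Chga at 0.54 ± 0.39. Leukocyte markers, which include T cell genes since T cells make Gata3, were measured for 12 of 14 genes, of which 10 were positive in both arrays and 0 negative. Their sums were 15594 and 16544 in the mutant pools, against 8909 and 9116 in the control pools. S100a8 and S100a9 rose by 2.02 ± 0.064 and 2.21 ± 0.32 (limma, adjusted p = 0.0150 for each), and Csf1r and Tyrobp were at 0.77 ± 0.0019 and 0.76 ± 0.17. Dimmer Csf1r probes had smaller ratios, of 0.15 and 0.068, and of 0.34 and 0.38. Il7r and Spi1 were the leukocyte markers not well above background. The medians were 0.19 for the red cell and mast cell list, 0.26 for the leukocyte, 0.34 for the sympathetic and -0.0067 for the endothelial list. These lists are wider than the cells that make Gata2 or Gata3. The mast cell gene Cpa3 had ratios of 0.44 and -0.48 and the T cell gene Cd3e 0.20 and 0.014, both picked with their values in view. The part of these cells in the ratios of Gata2 and Gata3 was not tested.

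Nephron markers bear on Pax2, Pax8 and Lhx1, which forming nephrons also express. Among 15 such genes, 3 were positive and 4 negative in both arrays. The median was -0.11 on array 1 and 0.099 on array 2. Six2, a factor of nephron progenitors, was at -1.12 and -0.22, and the RET ligand Gdnf at -0.67 and -0.45. The dimmer probes of Six2 were at -0.17 and -0.10, and at -0.46 and 0.44. The cadherin Cdh6 was at 0.27 and 1.16, and its dimmer probe at 0.11 and 0.66, so that, like Pax2 probe A and Lhx1 probe B, it was higher mainly on array 2. Wnt4, made in early nephrons and picked with its values in view, had 0.19 and -0.45, the opposite order. The summed level of the nephron list was 30655 and 26104 in the mutant pools, against 30413 and 28479 in the control pools, and its part in the ratios of Pax2, Pax8 and Lhx1 was not tested.

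Markers of the ureteric mesenchyme, the tissue around the duct epithelium, were negative in both arrays for 7 of 12 genes and positive for 2. Their median was -0.29 after loess, the lowest of all lists and below those of the 6 factors and of the epithelium. It was between -0.41 and -0.29 under 4 other scalings. The other duct and bud regulators had the lower median with the processed signals (-0.340 against -0.315) and in the authors' deposited table (-0.324 against -0.318). Foxf1 was at -0.73 ± 0.12, Tbx3 at -0.44 ± 0.092, Ptch1 at -0.36 ± 0.20 and Acta2 at 0.58 ± 0.58 (SD, n = 2 arrays). Markers of the Mullerian duct and gonad, neighbours that express Pax2, Pax8, Lhx1 or Emx2, were measured for 6 of 10 genes, with 3 positive and 1 negative. Hsd3b1 was at 1.11 and 0.19, Nr5a1 at 0.36 ± 0.16, Ddx4 at 0.14 ± 0.041 and Amhr2 at -0.13 ± 0.045. Wnt7a, Amh and Dazl were not well above background, and Insl3 was not matched by name. None of these genes passed the test in limma, and at an unadjusted p under 0.05 there were 3 mesenchymal genes and 2 of the Mullerian duct and gonad. Of all 20909 tested genes, 870 were under it.

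In the authors' deposited table, Gata3 had signed folds of -1.20 on array 1 and -1.61 on array 2, and Gata2 of -1.19 and -1.28. Pax2 probe A was at -1.23 and 2.41 and Lhx1 probe B at 1.0 and 2.32 in the authors' deposited table. The authors' deposited table gave Pax8 as -1.62 and -1.05, so that its sign on array 2 was the opposite of the 0.039 found here. On that table's values the mutant over control direction was found by setting each column against the processed signals (correlation 0.973 and 0.991), the median of each column was 1, and how it was centred is unknown.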

How the data were processed

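Per the submitters' processing notes, spot signals came from Agilent Feature Extraction 10.7.3.1, and per the labels' protocols 150 ng of total RNA was labelled. Mean and local background signals are raw intensity values per the file headers, which also give a processed intensity with background subtracted and dyes normalised. For each probe and array the authors' table has a score, a signed linear fold, and how it was made is not given in the sources. Both arrays were on 1 slide.

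With limma 3.58.1 (R 4.3.3), signals were background-corrected by normexp with an offset of 50 and normalised by loess with a span of 0.3. Outlier spots (3.35% and 3.05%) were dropped, the rest of a probe averaged, and the ratio of array 2 was turned. A probe was tested if over a share of 0.5 of its spots passed the scanner's flag for signal well above background on both arrays, in mutant or in control. Each probe was fitted with lmFit and eBayes against 0, adjusted over all tested probes, with 1 residual and 6.44 prior degrees of freedom. A p-value here rests on these 2 arrays only. Its variance is drawn in part from all tested probes, so it does not measure the spread of the 2 arrays alone. Levels are after loess and Aquantile normalization, and summed levels are linear with the offset subtracted, and were also taken without the gene with the largest part, a choice made after seeing the data. A gene is represented by its brightest tested probe. Symbols were updated through RefSeq accessions (28328 probes matched). On simulated data 11.2% of calls were unchanged probes, above the threshold of 0.05.

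Members, lists and tests were chosen with earlier results of these data known. Named were all member probes, paralogues at least 1.5-fold apart the same way on both arrays, for each other list the 4 largest mean ratios with 1 sign on both arrays, and the 2 nearest genes of the duct and epithelial lists. Some genes that this rule names are not reported here. Alternatives are given in the closing section.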

Additional observations from a re-analysis of the deposited data

Results flagged for a closer look

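Pax8, Lhx1 and Pax2 went opposite ways on the array of female pools and on that of male pools, and the difference was not tested. Opposite signs on the arrays were found for 56.5% of all tested genes, so 3 of 6 is no more than the background. Pax8 was at -0.59 on array 1 and 0.039 on array 2, Lhx1 at -0.30 and 0.18 at probe A, and Pax2 at -0.11 and 0.97 at probe A. The spots of Pax8 on array 2 and those of Pax2 probe A on array 1 lay on both sides of 0, and Pax2 probe B was positive on both arrays. Each sex has 1 array, and the dyes were exchanged between them, so sex and dye cannot be told apart.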

How the results depend on the processing

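No member probe passed an adjusted p of 0.05 under any of 9 other settings in limma, whose lowest adjusted p was 0.860 and whose count of member probes at an unadjusted p under 0.05 was 0 to 2. Gata3 ranged from -0.62 to -0.46 and Gata2 from -0.50 to -0.30 over these settings, Emx2 from -0.32 to -0.22 and Pax8 from -0.38 to -0.27, with no change of sign of the mean. Pax8 turned negative on array 2 in the authors' deposited table and under the scanner's processed signals, which makes 4 of 6 genes lower on both arrays. The mean ratio turned for Lhx1 probe A with the mean of its probes (0.18), since its probes differ. After median centring the median of the 6 genes was -0.33, while all tested probes had a median of -0.082 and 38.7% were lower on both arrays, against 23.2% after loess. Leaving out 1 array gave medians of the 6 genes from -0.29 to -0.17, between 3 and 6 genes lower and between 0 and 3 higher. Single-array ratios ran from -0.30 to 0.18 for Lhx1 probe A, from -0.11 to 0.97 for Pax2 probe A and from -0.59 to 0.039 for Pax8. The count over all probes was 0 to 14, with 6 after loess and 14 with the processed signals. No paired analysis was possible because each ratio already pairs the pools of 1 array. Signal over background limits the ratios of Pax2 and Lhx1.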
